A study of Mus musculus with 16 samples.

Results

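The Wnt genes described here are 43 of the 18193 genes measured in mouse aorta and aortic valve. They were taken by symbol from the platform annotation: the Wnt ligands, the Frizzled receptors Fzd1 to Fzd10, the co-receptors Lrp5 and Lrp6, the secreted antagonists Sfrp1, Sfrp2, Sfrp4, Sfrp5, Frzb, Wif1 and Dkk1 to Dkk4, and the nuclear factor or target genes Axin2 and Lef1. The rule uses symbols and no measured value, but it was set with earlier results of these data known. For the 26 genes with several probe sets, the one shown is the most variable on the 16 arrays. That choice uses measured values and can favour probe sets that differ between groups. The same choice was made for all genes. There were 19 ligands, 10 Frizzled receptors, 2 co-receptors, 10 antagonists and 2 nuclear or target genes, with 83 probe sets in all. Tcf7 also fits the rule but has 0 probe sets assigned to it alone, so it was not analysed.

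The ascending aorta and the aortic valve, the latter dissected together with annulus and root, were taken from mice aged 30 days. Mice were Eln+/+, with intact alleles of the elastin gene, or Eln+/-, with 1 inactive allele. Each tissue was taken in each genotype, which gave 4 groups of 4 arrays, and every array carried amplified RNA of 1 specimen without pooling. Each value is the log2 of a deposited ratio, which for most probe sets has a median of 1 on the 16 arrays. The shown probe sets of 2 Wnt genes, Dkk1 and Lef1, have a median below 1, and what their signal was divided by is not known. Such values show differences between arrays and no level, and genes cannot be ranked by abundance.

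Wnt proteins are secreted, lipid-modified ligands that bind a Frizzled receptor together with Lrp5 or Lrp6. Binding stabilises beta-catenin, which enters the nucleus and acts with Lef1 and the related Tcf proteins on target genes. Axin2 is such a target and also a negative regulator of the pathway. Sfrp proteins, Frzb and Wif1 bind the ligands outside the cell, and Dkk proteins such as Dkk1 act on the co-receptors. Other ligands, of which Wnt5a is the best known, also signal without beta-catenin. In the developing heart, Wnt signals act in the endocardial cushions, from which the valves form, and Wnt9b is a ligand of the cushion endocardium.

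Lef1 and the Tcf proteins bind the letters CTTTGAT or CTTTGAA, and the windows of 250 bases before the transcription start were searched for them on both strands. The windows come from RefSeq on build GRCm38.p6. Of the 27025 genes with a window 8.63% held such a match, and of the 29 Wnt genes with a window 3 did, or 10.3% (Dkk1, Wnt11 and Wnt5b). Of the 7 Wnt genes that differed between valve and aorta over both genotypes, 6 had a window, and 0 of the 6 held a match. The windows of Wnt9b and Axin2 are shown because these are the genes that rose in the valve of Eln+/+ mice, and that of Dkk1 because it holds a match. They lie at chr11:103749822-103750071 on the minus strand for Wnt9b, at chr11:108920099-108920348 on the plus strand for Axin2 and at chr19:30549497-30549746 on the minus strand for Dkk1. Each is written 5′ to 3′ along its gene and ends at the base before the start, and capitals mark the match.
Wnt9b: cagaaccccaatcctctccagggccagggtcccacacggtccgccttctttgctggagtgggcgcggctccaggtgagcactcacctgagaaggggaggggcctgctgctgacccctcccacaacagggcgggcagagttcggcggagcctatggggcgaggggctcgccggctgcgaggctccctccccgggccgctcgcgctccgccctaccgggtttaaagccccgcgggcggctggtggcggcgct
Axin2: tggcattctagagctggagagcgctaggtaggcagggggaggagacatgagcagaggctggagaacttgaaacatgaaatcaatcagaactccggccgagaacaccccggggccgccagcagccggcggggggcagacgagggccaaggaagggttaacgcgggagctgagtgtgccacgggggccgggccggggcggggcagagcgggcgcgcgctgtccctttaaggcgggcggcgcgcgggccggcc
Dkk1: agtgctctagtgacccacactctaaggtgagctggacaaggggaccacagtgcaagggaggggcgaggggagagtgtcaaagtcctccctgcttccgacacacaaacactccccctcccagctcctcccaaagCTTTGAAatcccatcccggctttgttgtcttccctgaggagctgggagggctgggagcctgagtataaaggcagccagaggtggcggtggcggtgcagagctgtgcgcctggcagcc
The match in Dkk1 begins 117 bases before the start. The windows are rich in G and C, with 72% in Wnt9b, 69.2% in Axin2 and 60.8% in Dkk1 against a median of 52.4% over all windows. A match describes letters only and says nothing of binding in these tissues.

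Several features of the series bear on the Wnt genes. Eln, the targeted gene, was lower on average in Eln+/- arrays: by a log2 difference of -0.42 ± 0.34 (SE) in the aorta, where the groups of 4 overlapped, and -1.27 ± 0.34 (SE) in the valve, where they overlapped too. The limma adjusted p was 0.900 and 0.395, and the exact permutation p was 0.0571 in each. Xist minus the Y-linked genes was above 0 on all 8 Eln+/- arrays, but on 1 of 4 arrays in each Eln+/+ group (aorta replicate 4 and valve replicate 2), so genotype and this sex signal went largely together. Aorta Eln+/- replicate 2 had the lowest array weight in limma, 0.44, and the highest mean of the T cell and thymocyte list, 1.76. The adipocyte list was high on that array, at 2.60, and on aorta Eln+/+ replicates 1 and 4, at 1.95 and 3.14.

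**Figure D1:**
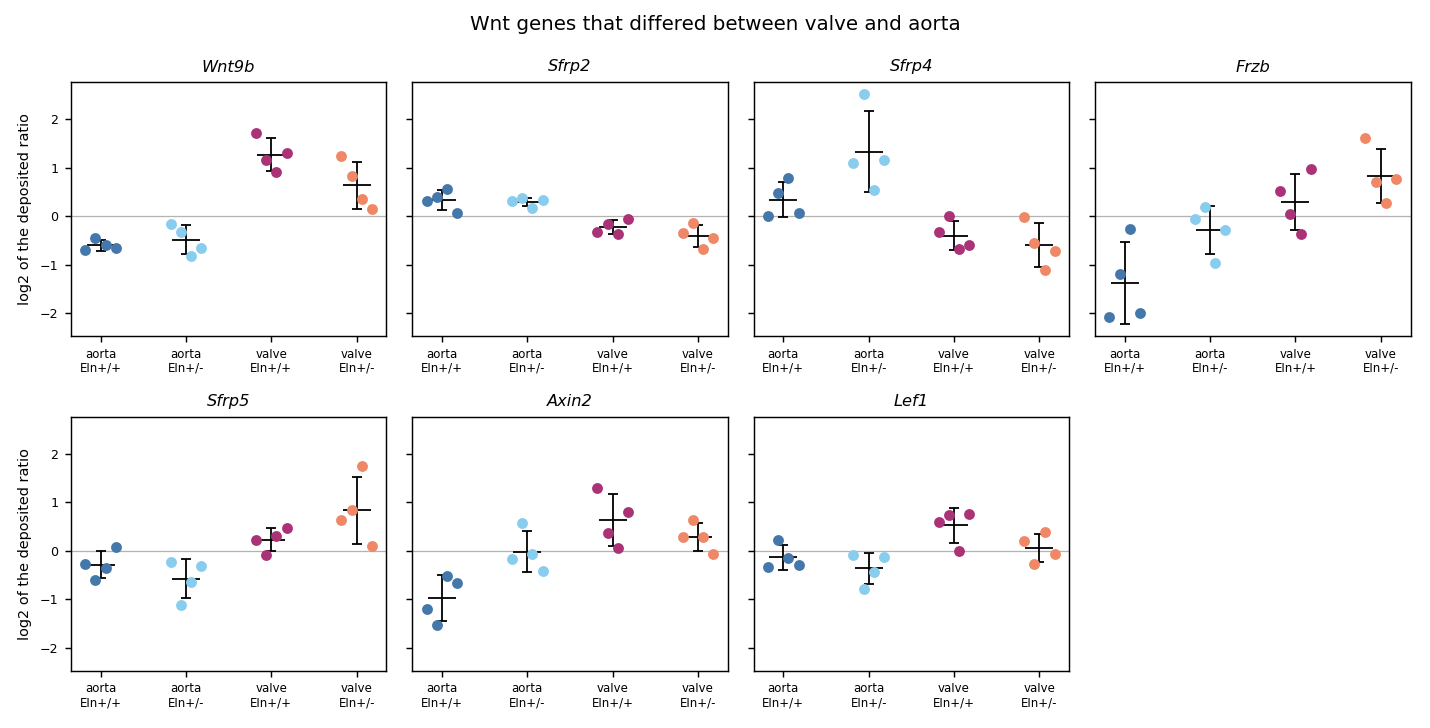
Log2 of the deposited ratio for each of the 7 Wnt genes past the threshold between valve and aorta over both genotypes. Each point is 1 array, horizontal bars are group means and vertical bars are SD (n = 4). Wnt9b, Frzb, Sfrp5, Axin2 and Lef1 lie higher in the valve groups, and Sfrp2 and Sfrp4 lie lower.

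Valve and aorta were first compared over both genotypes, which asks how the pathway differs between the tissues. The ligand Wnt9b, the antagonists Frzb and Sfrp5 and the genes Axin2 and Lef1 rose in the valve, by log2 differences of 0.54 to 1.50. The antagonists Sfrp2 and Sfrp4 fell there by 0.63 and 1.33. In this comparison 7 of the 43 Wnt genes passed an adjusted p of 0.05 in limma, against 9.63% of all genes. Of these, 5 were higher in the valve, against 5.83% of all genes, and 2 lower, against 3.8%. In 3 (Wnt9b, Sfrp2 and Sfrp4) the arrays of the tissues did not overlap, against 2.04% of all genes. The median difference was -0.0070 over the Wnt genes and -0.030 over all genes, with 21 Wnt genes higher and 22 lower in the valve. In bulk tissue a change in the number of cells of a type and a change in RNA per cell cannot be told apart.

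Among the ligands, Wnt9b stood at -0.71, -0.45, -0.59 and -0.65 in the Eln+/+ aorta (replicates 1 to 4) and at -0.17, -0.32, -0.82 and -0.65 in the Eln+/- aorta. Its log2 ratios in the valve were 1.70, 1.16, 0.90 and 1.30 in Eln+/+ and 1.23, 0.82, 0.35 and 0.15 in Eln+/- mice. Every valve array was above every aorta array. The difference was 1.50 ± 0.16 (SE), a 2.82-fold ratio, with a limma adjusted p of 3.85e-05 and a two-sided exact permutation p of 0.000408, the smallest that reassigning tissue within each genotype can give. The other probe set of Wnt9b did not follow, with a difference of 0.057 and an adjusted p of 0.837. Wnt3, the neighbour of Wnt9b on the chromosome, had a difference of -0.32 (adjusted p 0.102).

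The other 18 ligands did not pass the threshold over both genotypes, and their differences ran from -0.69 to 0.39. Wnt16 had the lowest p among them, with a difference of -0.69 ± 0.22 (SE) and an adjusted p of 0.0696. Wnt5a was nearly level on average, at 0.031 (95% interval -0.52 to 0.58) over both genotypes. In all, 9 ligands were higher and 10 lower in the valve.

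None of the 10 Frizzled receptors passed the limma threshold on the probe set shown, while 4 had an unadjusted p under 0.05, against 22.8% of all genes at that level. Fzd5 values in the aorta were 0.58, -0.11, 0.76 and 0.47 in Eln+/+ and 0.73, -0.18, 1.07 and 1.60 in Eln+/- mice. Its values in the valve were -0.47, 0.66, -0.23 and -0.45 in Eln+/+ and -0.15, -0.054, -0.39 and 0.052 in Eln+/- mice. Apart from valve Eln+/+ replicate 2 and aorta replicate 2 of each genotype, every aorta array was above every valve array. The difference was -0.74 ± 0.23 (SE), with an adjusted p of 0.0613. For Fzd2 it was -0.57 ± 0.18 (SE) with an adjusted p of 0.0695. The other probe sets of Fzd2 gave -0.56 and -0.58 and passed, at adjusted p values of 0.0359 and 0.0368. With the mean of all probe sets of a gene, Fzd2 passed at 0.0191 and Fzd5 at 0.0178.

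Neither co-receptor passed the threshold between the tissues. Lrp5 differed by 0.33 ± 0.13 (SE) with an adjusted p of 0.144, and passed without valve Eln+/- replicate 3 (0.42, adjusted p 0.0339). For Lrp6 the difference was -0.0070, with a 95% interval from -0.35 to 0.33.

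Antagonists held 4 of the 7 calls, 2 in each direction. Frzb, which binds Wnt ligands and is known from cartilage, stood at -2.07, -1.19, -0.26 and -2.00 in the Eln+/+ aorta and at -0.053, 0.18, -0.96 and -0.28 in the Eln+/- aorta. Its valve values were 0.52, 0.051, -0.37 and 0.97 in Eln+/+ and 1.60, 0.70, 0.26 and 0.76 in Eln+/- mice. The tissues overlapped, with valve Eln+/+ replicate 3 below 4 of the 8 aorta arrays. The rise was 1.39 ± 0.29 (SE), or 2.62-fold, with an adjusted p of 0.00642 and an exact permutation p of 0.00122. Its other probe set gave 1.50 (adjusted p 0.00176), with no overlap between the tissues.

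Sfrp5, a related secreted antagonist, had values of -0.27, -0.60, -0.36 and 0.081 in the Eln+/+ aorta and -0.23, -1.12, -0.64 and -0.32 in the Eln+/- aorta. In the valve they were 0.23, -0.086, 0.31 and 0.48 in Eln+/+ and 0.64, 0.84, 1.74 and 0.099 in Eln+/- mice. Aorta Eln+/+ replicate 4 was above valve Eln+/+ replicate 2, and no other pair of arrays crossed. Sfrp5 rose by 0.96 ± 0.20 (SE), or 1.95-fold, with an adjusted p of 0.00733. Its other probe set gave 0.27 and did not pass (adjusted p 0.282).

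Sfrp2 and Sfrp4 went the other way. For Sfrp2 the aorta values were 0.32, 0.39, 0.57 and 0.058 in Eln+/+ and 0.31, 0.37, 0.18 and 0.32 in Eln+/- mice. Its values in the valve were -0.33, -0.15, -0.37 and -0.060 in Eln+/+ and -0.35, -0.14, -0.68 and -0.46 in Eln+/- mice. Every aorta array was above every valve array. Sfrp2 fell by 0.63 ± 0.10 (SE), to a ratio of 0.644, with an adjusted p of 0.00100 and an exact permutation p of 0.000408.

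Sfrp4 stood at 0.0077, 0.47, 0.78 and 0.074 in the Eln+/+ aorta and at 1.10, 2.52, 0.54 and 1.16 in the Eln+/- aorta. In the valve it was at -0.32, -0.0077, -0.68 and -0.59 in Eln+/+ and at -0.022, -0.55, -1.11 and -0.71 in Eln+/- mice. Here too every aorta array was above every valve array, and Eln+/- aorta replicate 2 was the highest. The fall was 1.33 ± 0.24 (SE), to a ratio of 0.397, with an adjusted p of 0.00274. Of the other antagonists, Wif1 came nearest to the threshold, at 0.67 (adjusted p 0.0803). Dkk1 to Dkk4 and Sfrp1 ranged from -0.14 to 0.34 with adjusted p values from 0.244 to 0.908.

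Both nuclear or target genes rose in the valve on the probe set shown. Axin2 values were -1.21, -1.52, -0.51 and -0.65 in the Eln+/+ aorta and -0.16, 0.57, -0.069 and -0.42 in the Eln+/- aorta. Its valve values were 1.30, 0.37, 0.061 and 0.79 in Eln+/+ and 0.28, 0.63, 0.28 and -0.064 in Eln+/- mice. The aorta and valve arrays of Eln+/+ mice lay apart, while those of Eln+/- mice overlapped. Over both genotypes Axin2 rose by 0.95 ± 0.20 (SE), or 1.94-fold, with an adjusted p of 0.00802 and an exact permutation p of 0.00367. Its other probe set gave 0.42 (adjusted p 0.0516).

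Lef1 was at -0.32, 0.23, -0.15 and -0.29 in the Eln+/+ aorta and at -0.090, -0.78, -0.43 and -0.14 in the Eln+/- aorta. In the valve it was at 0.60, 0.74, 0.0043 and 0.76 in Eln+/+ and at 0.20, -0.27, 0.39 and -0.055 in Eln+/- mice. The groups overlapped, and the rise of 0.54 ± 0.15 (SE), or 1.46-fold, had an adjusted p of 0.0340. The call was lost in 14 of the 26 alternatives it was tested in, 10 of them with 1 array left out, where its lowest difference was 0.47. With the adipocyte mean as a covariate, an alternative chosen after seeing the data, the difference was 0.28, with an adjusted p of 0.342. The other probe set of Lef1 gave 0.33 between the tissues and did not pass.

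Marker lists of cell types were compared between the tissues, against 5.83% of all genes that rose and 3.8% that fell. All 16 cardiac muscle genes rose in the valve pieces, with list means of -3.80 to -0.98 on the aorta arrays and 0.58 to 2.42 on the valve arrays. In the cartilage-type list 6 of 8 rose, with means of -1.44 to -0.58 in the aorta and 0.030 to 1.87 in the valve. Of 9 endothelial genes 4 rose, and of 11 smooth muscle genes 7 fell and 1 rose. In the fibroblast and valve interstitial list 4 of 8 rose and 0 fell, with means of -0.49 to 0.13 in the aorta and -0.34 to 0.34 in the valve. Of 7 skeletal muscle genes 3 rose, and of 4 Schwann cell and neuron genes 1 rose. Of 5 adipocyte genes 1 fell, and of 10 T cell and thymocyte genes 1 fell. In the macrophage list 0 of 6 passed, and in the mesothelial and epicardial list 0 of 7. Ratios hold no zero level, so no defining marker could be called absent. With the adipocyte mean as a covariate, Frzb was at 0.96 (adjusted p 0.0934) and Sfrp5 at 0.90 (adjusted p 0.0526). That covariate was chosen after seeing the data. Under it and every other alternative, Wnt9b, Sfrp2, Sfrp4 and Axin2 kept their calls over both genotypes. What part the marker lists had in these tissue differences was not tested.

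**Figure D2:**
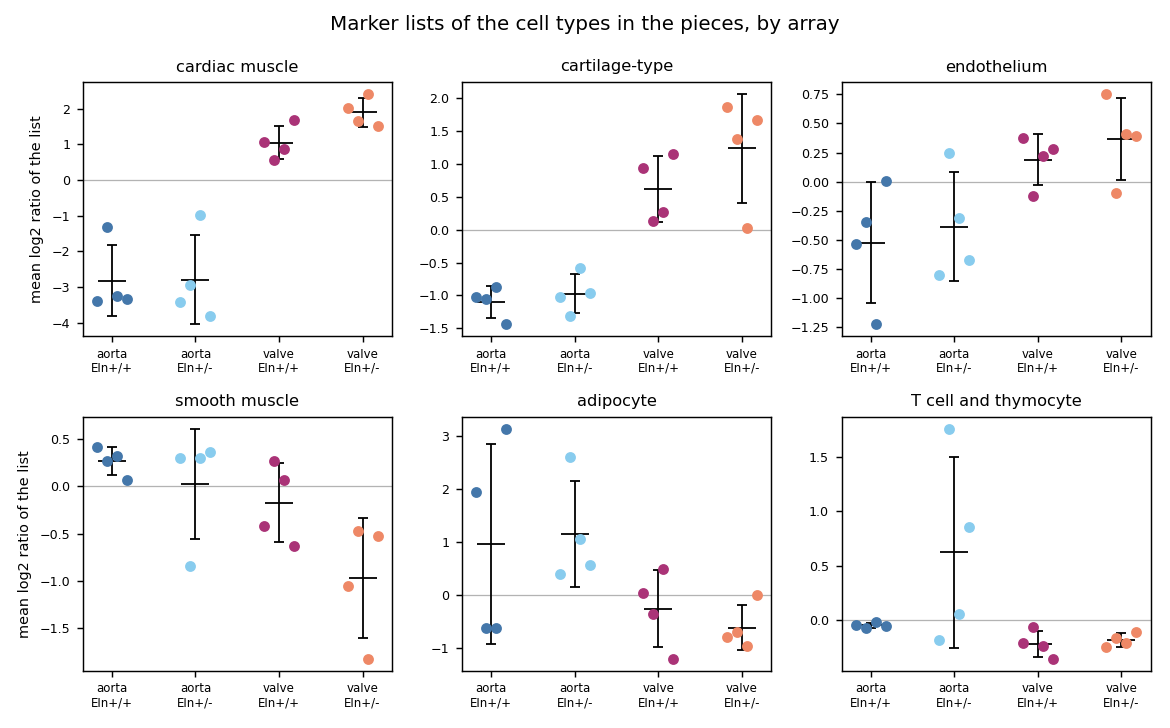
Mean log2 ratio of 6 marker lists on each array, by group. Points are arrays, horizontal bars are group means and vertical bars are SD (n = 4). Cardiac muscle genes lie between -3.80 and -0.98 in the aorta and between 0.58 and 2.42 in the valve, and the adipocyte list is above 1.9 on 3 aorta arrays.

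The rest of the pathway was followed in a list of 61 further genes in 6 groups, of which 12 passed the threshold over both genotypes, against 9.63% of all genes. The counts by direction stand against 5.83% of all genes that rose and 3.8% that fell. In the group of R-spondins, their Lgr receptors and the ligases they act on, 2 of 9 rose and 1 fell. Rnf43, a membrane ligase that removes Frizzled receptors and is itself a Wnt target, rose by 0.86 ± 0.14 (SE) with an adjusted p of 0.00149. Rspo3, a secreted enhancer of Wnt signalling, rose by 1.08 ± 0.20 (SE) with an adjusted p of 0.00355. Lgr6, a receptor for R-spondins, fell by 1.01 ± 0.18 (SE) with an adjusted p of 0.00205.

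Of 5 genes for ligand secretion and extracellular enzymes or glypicans, 2 fell and 0 rose. They were Wls, the carrier that brings Wnt proteins to the cell surface, at -0.46 ± 0.13 (SE, adjusted p 0.0360), and the glypican Gpc3 at -0.74 ± 0.21 (SE, adjusted p 0.0357). Among 12 other receptors and planar polarity genes, 2 rose. They were Daam2, which binds Dishevelled, by 0.90 (adjusted p 0.00389), and Prickle2, a planar polarity gene, by 0.52 (adjusted p 0.0243). None of the 12 genes of the destruction complex and Dishevelled passed, with Dvl1, which relays the signal from Frizzled, nearest at -0.54 (adjusted p 0.0594).

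Of 6 further antagonists 2 rose, the membrane inhibitor Tpbg by 1.04 (adjusted p 0.00559) and the secreted Wnt and BMP antagonist Sostdc1 by 0.99 (adjusted p 0.0449). Among 17 further nuclear factors and targets 2 rose and 1 fell. Ccnd1, which encodes cyclin D1 and is a target shared with other growth pathways, rose by 1.34 ± 0.20 (SE) with an adjusted p of 0.000708, and its tissues did not overlap. Nkd2, an inhibitor that binds Dishevelled, rose by 1.03 (adjusted p 0.0326). Tcf7l1, a Tcf protein that often represses targets, fell by 0.50 (adjusted p 0.0353).

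The same tissue comparison was then made in each genotype. The 2 comparisons share no arrays. In Eln+/+ mice 2 of the 43 Wnt genes passed, against 1.32% of all genes, and both were higher in the valve, against 1.19%. In 4 Wnt genes, Wnt9b, Axin2, Sfrp2 and Sfrp4, the tissues did not overlap, against 8.45% of all genes. The 2 past the threshold were Wnt9b, at 1.87 ± 0.23 (SE), or 3.65-fold (adjusted p 0.000924), and Axin2, at 1.60 ± 0.29 (SE), or 3.04-fold (adjusted p 0.0122). Each had an exact permutation p of 0.0286, the smallest that 4 arrays against 4 can give. The call of Axin2 ended without valve Eln+/+ replicate 1 (1.38, adjusted p 0.0507) or replicate 4 (1.55, adjusted p 0.0521). Next by p were Frzb, at 1.67 ± 0.40 (SE, adjusted p 0.0685), and Sfrp2, at -0.56 ± 0.14 (SE, adjusted p 0.0825).

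In Eln+/- mice 5 of the 43 Wnt genes passed, against 7.06% of all genes. In the valve 2 were higher, against 4.41%, and 3 lower, against 2.65%. In 6 Wnt genes the tissues did not overlap, against 12.1% of all genes. Wnt9b rose by 1.13 ± 0.23 (SE), or 2.18-fold (adjusted p 0.00826), and Sfrp5 by 1.41 ± 0.29 (SE), or 2.65-fold (adjusted p 0.00869). Sfrp4 fell by 1.93 ± 0.34 (SE), to a ratio of 0.263 (adjusted p 0.00352), and Sfrp2 by 0.71 ± 0.14 (SE, adjusted p 0.00847). Groups of these 4 genes did not overlap.

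Wnt16, the fifth call, had aorta Eln+/- values of 1.07, 0.26, 0.26 and 0.91 and valve Eln+/- values of -1.06, 0.44, -1.05 and -0.46. Valve replicate 2 lay within the aorta range. The fall of 1.16 ± 0.31 (SE) had an adjusted p of 0.0394 but an exact permutation p of 0.0857, and the call was lost in 11 of 27 alternatives. Without aorta Eln+/- replicates 2 and 4 together, the arrays with the highest T cell and thymocyte means, 3 Wnt genes passed in Eln+/- mice. Sfrp2 then stood at -0.65 (adjusted p 0.0656), Sfrp5 at 1.27 (adjusted p 0.0590) and Wnt16 at -1.20 (adjusted p 0.118).

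Across the Wnt genes, 26 of 43 (60.5%) had the same sign of the tissue difference in each genotype, against 59.9% of all genes. Wnt9b, Sfrp2 and Sfrp4 were the 3 whose tissues did not overlap in either genotype, or 6.98%, against 2.87% of all genes. Wnt5a was among the genes with opposite signs, at 0.68 ± 0.37 (SE) in Eln+/+ and -0.62 ± 0.37 (SE) in Eln+/- mice, neither past the threshold. Wnt8b had the reverse order, at -0.62 and 0.59.

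**Figure D3:**
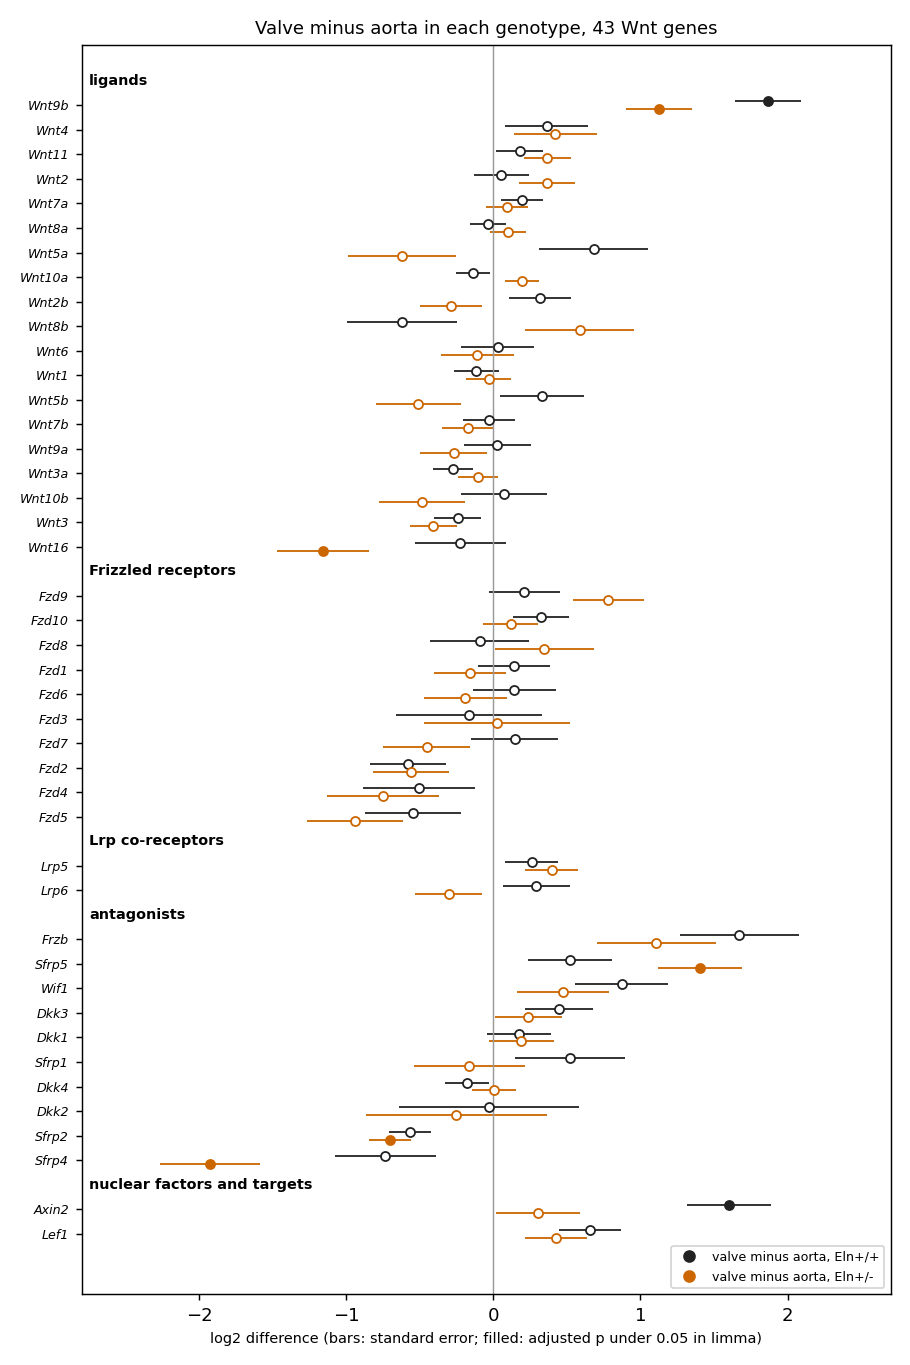
Valve minus aorta log2 difference of the 43 Wnt genes in Eln+/+ (black) and Eln+/- (orange) mice, by role. Points are limma estimates, bars are SE and filled points passed an adjusted p of 0.05. Wnt9b is filled in each genotype, Axin2 in Eln+/+ mice, and Sfrp5, Sfrp2, Sfrp4 and Wnt16 in Eln+/- mice.

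The genotypes were compared within each tissue, to ask how Wnt genes differ when 1 allele of Eln is inactive. In the aorta 0 of the 43 Wnt genes passed in limma, as did 0% of all genes, and 4 had an unadjusted p under 0.05 against 5.68% of all genes. Axin2 was higher in Eln+/- aorta by 0.95 ± 0.29 (SE), with an unadjusted limma p of 0.00437 and an adjusted p of 0.867. Its groups of 4 did not overlap, and the exact permutation p was 0.0286, the smallest possible. The other probe set of Axin2 gave -0.11.

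Sfrp4 was higher in Eln+/- aorta by 1.00 ± 0.34 (SE, adjusted p 0.885), and by 0.49 without Eln+/- replicates 2 and 4. Frzb was higher by 1.10 ± 0.40 (SE, adjusted p 0.885), with 0.67 on its other probe set. Wnt8b was lower by 0.88 ± 0.37 (SE, adjusted p 0.885), with values of 0.18, 0.25, 0.67 and 0.074 in Eln+/+ against -0.23, -1.42, -0.64 and -0.045 in Eln+/- mice. Its groups did not overlap, but its other probe sets gave -0.34 and -0.017. Of the Wnt genes 3 (6.98%) had groups without overlap in the aorta, Axin2, Wnt8b and Wnt10a, against 2.78% of all genes.

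In the valve 0 of the 43 Wnt genes passed in limma, as did 0% of all genes, and 4 had an unadjusted p under 0.05 against 9.48% of all genes. No Wnt gene had valve groups without overlap (0 of 43), against 5.33% of all genes. Of the 43 genes 30 were lower in Eln+/- valve, against 8187 of all 18193 genes, a count that rests on differences that did not pass. Of the 30, 12 were ligands and 7 each Frizzled receptors and antagonists. The median difference was -0.14 against 0.032 over all genes. The lowest p values were those of Wnt9b, Lrp6, Wnt5a and Lef1, all lower in Eln+/- mice. Wnt9b differed by -0.63 ± 0.23 (SE, adjusted p 0.453) and Lrp6 by -0.61 ± 0.23 (SE, adjusted p 0.464).

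Wnt5a values in the valve were 0.034, 1.80, 0.21 and -0.035 in Eln+/+ and -0.91, 0.36, -0.58 and -0.75 in Eln+/- mice. Replicate 2 was the highest array of each genotype. The difference was -0.97 ± 0.37 (SE, adjusted p 0.476), and -0.54 without valve Eln+/+ replicate 2. All 4 probe sets of Wnt5a were lower in Eln+/- valve, from -0.97 to -0.29, and higher in Eln+/- aorta, from 0.13 to 0.33. Lef1 differed by -0.46 ± 0.21 (SE, adjusted p 0.571), and its other probe set by 0.11.

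Marker lists were also compared between the genotypes in the valve, and no gene passed the threshold. Of all genes, 10006 of 18193 were higher in Eln+/- valve and 9.48% had an unadjusted limma p under 0.05. Of 11 smooth muscle genes 10 were lower in Eln+/- valve, with a median difference of -0.95, and 8 had an unadjusted p under 0.05. The list mean ran from -0.63 to 0.27 on Eln+/+ and from -1.83 to -0.47 on Eln+/- valve arrays. Mesothelial and epicardial genes were lower in 7 of 7 (median -0.58), and fibroblast and valve interstitial genes in 7 of 8 (median -0.27). Skeletal muscle genes were higher in 7 of 7 (median 0.60) and cartilage-type genes in 7 of 8 (median 0.62). Endothelial genes were higher in 7 of 9, macrophage genes in 4 of 6 and Schwann cell and neuron genes in 3 of 4. T cell and thymocyte genes were higher in 6 of 10 and adipocyte genes in 1 of 5. In each of these last lists 0 genes had an unadjusted p under 0.05, from endothelial to adipocyte genes. All 16 cardiac muscle genes were higher in Eln+/- valve, 2 with an unadjusted p under 0.05, and the list mean was 1.05 ± 0.46 (SD, n = 4) on Eln+/+ arrays against 1.91 ± 0.40 (SD, n = 4) on Eln+/- arrays. The part of the marker lists in the Wnt differences was not tested. The cardiac mean went largely with genotype on the valve arrays, at 0.58 to 1.68 in Eln+/+ and 1.52 to 2.42 in Eln+/- mice. A fit with it as a covariate cannot separate that mean from genotype. When the mean of the cardiac list was a covariate over the 8 valve arrays, the difference was -0.79 for Wnt9b, -0.062 for Lrp6, -0.13 for Wnt5a and -0.80 for Lef1. With the same sex signal as a covariate, Wnt9b was at -0.55 and Wnt5a at -1.46 in the valve, and Axin2 at 0.94 and Wnt8b at -1.42 in the aorta. None of these passed the threshold.

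**Figure D4:**
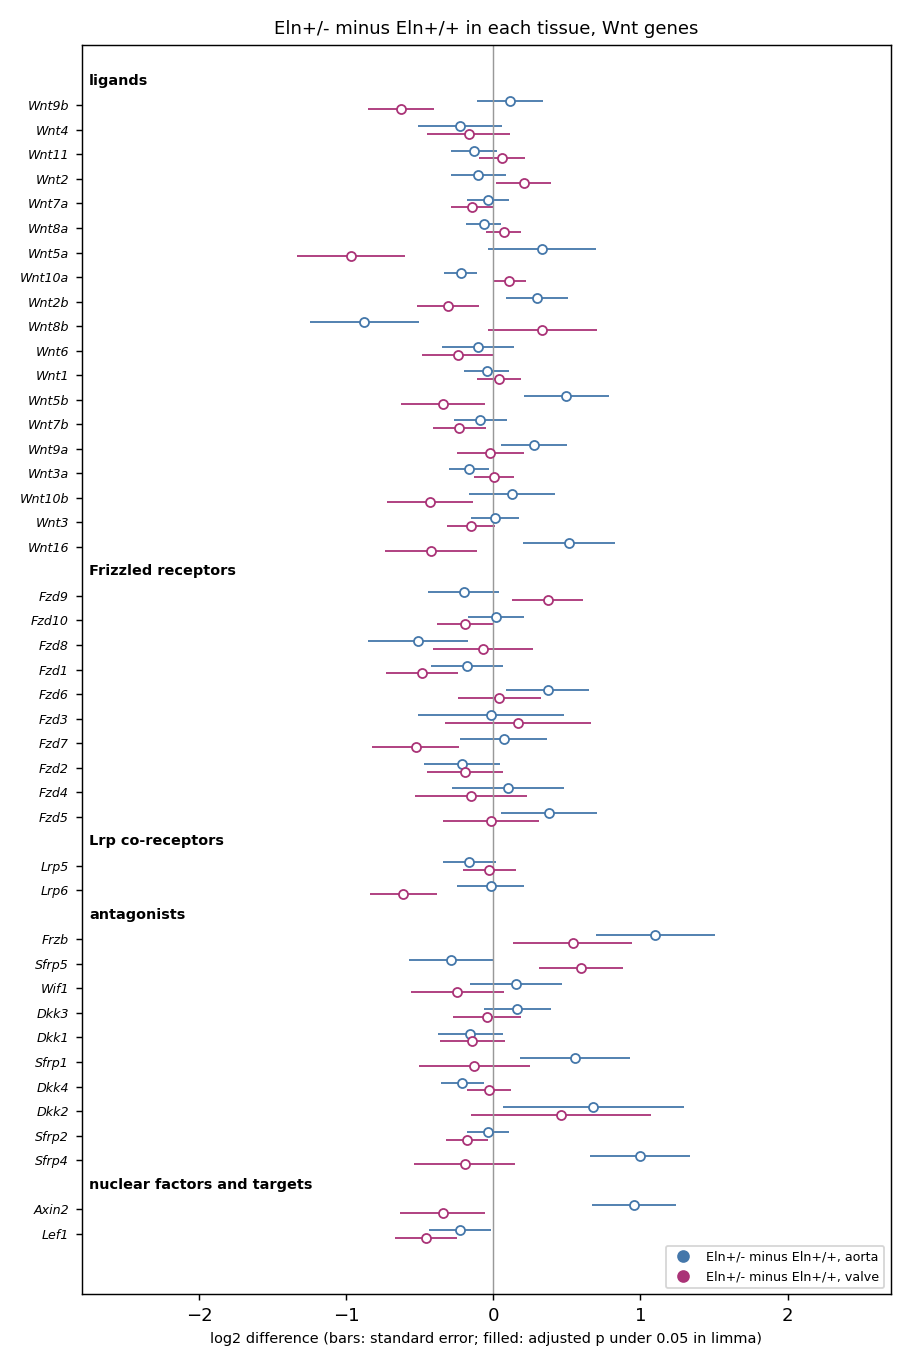
Eln+/- minus Eln+/+ log2 difference of the 43 Wnt genes in aorta (blue) and valve (purple), by role. Points are limma estimates and bars are SE, and no point is filled because none passed an adjusted p of 0.05. Axin2, Sfrp4 and Frzb lie near 1 in the aorta, and Wnt5a lies at -0.97 in the valve.

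The difference between the genotype effects of valve and aorta was tested as an interaction. For it 0 of the 43 Wnt genes passed in limma, as did 0% of all genes, and 6 had an unadjusted p under 0.05 against 8.48% of all genes. The lowest p was that of Axin2, with -1.30 ± 0.41 (SE, unadjusted p 0.00564 and adjusted p 0.619). Its tissue difference was 1.60 in Eln+/+ and 0.30 ± 0.29 (SE, adjusted p 0.643) in Eln+/- mice, and the limma test of their difference did not pass. Wnt5a followed at -1.30 ± 0.52 (SE, adjusted p 0.628), Sfrp4 at -1.19 ± 0.48 (SE, adjusted p 0.628) and Wnt9b at -0.74 ± 0.32 (SE, adjusted p 0.636). Without aorta Eln+/- replicates 2 and 4 the value of Sfrp4 was -0.68. By sign, 17 of the 43 Wnt genes (39.5%) were higher in Eln+/- aorta and lower in Eln+/- valve, against 22.4% of all genes, a count that rests on differences that did not pass.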

How the data were processed

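RNA of 16 mouse specimens was measured on Affymetrix mouse arrays, and the arrays, 4 in each group, limit the precision. The submitters' processing notes name RMA, with no version. The values the authors deposited are a linear ratio, which for most probe sets is signal over the median on all 16 arrays. That division was read from the values: the median was 1, to within 1e-06, in 39827 of 45101 rows, below 1 in 5274 and above 1 in 0. What the 5274 were divided by is not known. No level is kept, so no filter on dim probe sets was possible.

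Log2 ratios, with no pseudocount, of the 45037 probe sets left after 64 controls were fitted with 4 group means in limma 3.58.1 (R 4.3.3), with Benjamini-Hochberg adjustment over all probe sets and a threshold of 0.05. In the platform annotation 34945 have 1 gene, 932 several and 9160 none. Where a gene has several probe sets, the text shows the most variable (highest SD); 26 Wnt genes have several. All 43 symbols were matched to RefSeq by Entrez identifier. Exact permutation tests are two-sided, over 70 assignments within a genotype or tissue and 4900 over both genotypes, and are not adjusted. P-values measure the spread between specimens. The fit was tested on simulated data.

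The Wnt genes, the pathway and marker lists and the naming rule were chosen with earlier results of these data known. The rule names every Wnt gene past the threshold, the 4 of lowest p where fewer passed, the 2 of lowest p in each role, and the 2 of lowest p in each pathway list; other genes named were chosen after their values were seen. Alternatives were centring, quantile normalization, a pseudocount of 0.1, probe sets with a median of 1, array weights, robust eBayes, the mean of all probe sets, replicate block, covariates and leaving out arrays. Within tissue and genotype, arrays with the same number in aorta and valve had correlations of their deviations between -0.040 and 0.052, so the numbers were not used as pairs. In Eln+/+ mice, Xist minus the Y-linked genes was 0.66 on aorta replicate 4 and -11.0 on valve replicate 4. It was -10.7 on aorta replicate 2 and 0.84 on valve replicate 2. These numbers therefore did not pair arrays of the same mouse there.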

Additional observations from a re-analysis of the deposited data

Results flagged for a closer look

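In 56 sets of 4 arrays of the 14 Wnt genes named with values, 3 arrays lay far from the other 3 by Dixon's criterion at 95%, and chance alone marks about 1 in 20 such sets. Lrp6 on aorta Eln+/- replicate 2 was at -0.40, with the others between -0.013 and 0.056; that array also had the lowest array weight. Wnt5a on aorta Eln+/+ replicate 3 was at 0.48, with the others between -0.50 and -0.34. Wnt5a on valve Eln+/+ replicate 2 was at 1.80, with the others between -0.035 and 0.21.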

How the results depend on the processing

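Of 14 called values of single Wnt genes, 7 kept their call under every alternative and 7 lost it under at least 1. Of 19 values not called, 6 passed under at least 1. Over both genotypes between 5 and 10 Wnt genes passed, and in the genotype and interaction comparisons 0 passed under each alternative. In Eln+/+ mice the count of 2 became 4 with quantile normalization and 4 with the mean of all probe sets, and ran from 1 to 3 with 1 array left out; it was 1 without valve Eln+/+ replicate 1 or 4. In Eln+/- mice the count of 5 became 3 without aorta Eln+/- replicates 2 and 4 together, an alternative chosen after seeing the data, as was the adipocyte covariate; 2 of the 3 were among the 5. The cause of the lower count was not tested, and no other pair of arrays was left out for comparison. Lrp6 between the tissues changed sign, to 0.013 with centring and 0.044 with quantile normalization, and ran from -0.080 to 0.090 with 1 array left out, all far from the threshold. With the mean of its probe sets Wnt9b was at 0.78. The replicate block gave counts of 6, 2 and 4 for the tissue comparisons over both genotypes, in Eln+/+ and in Eln+/- mice, and 0 for the other 3; Lef1 (adjusted p 0.0686) and Wnt16 in Eln+/- mice (0.0657) were the calls lost with it. The median-of-1 filter could not test Lef1 and Dkk1.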
